A study of Mus musculus with 40 samples.

Results

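A list of 50 mitosis genes was followed through RNA-seq of blood stem and progenitor cells from mice labelled wild type (WT) or Hira knockout (KO). The 50 genes comprise 8 cyclins, kinases and phosphatases of mitotic entry, 5 genes of the spindle checkpoint and 4 of the anaphase-promoting complex pathway. These 4 are Cdc20, Ube2c, Pttg1 and Espl1, which encodes separase. A further 4 belong to the chromosomal passenger complex, 7 to the centromere and kinetochore and 10 to spindle motors and microtubule proteins. The remaining roles are cytokinesis, with 6 genes, and chromosome structure, with 6. A gene was analysed in a population where its value was at least 1 FPKM (fragments per kilobase of gene, scaled to library size) in 50% or more of the libraries. That held for all 50 genes in 4 of the 6 populations, for 48 in the multipotent progenitors (MPPs) of the first cohort, where Cenpe and Cenpf were below it, and for 49 in the GFP-high MPPs, where Cenpe was below it. Between 10621 and 13916 genes in all were tested per population.

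All mice were C57BL/6, and the KO libraries came from mice with floxed Hira alleles (Hira fl/fl) and Mx1-Cre, a recombinase gene under a promoter that interferon switches on. The HIRA protein loads histone H3.3 onto DNA independently of replication. In the first cohort, 2500 haematopoietic stem cells (HSCs) or MPPs per library were sorted from bone marrow 1 week after the first of 2 doses of 20 µg poly(I:C), an RNA mimic of viral infection that provokes interferon, giving 4 WT and 4 KO libraries of each cell type. The second cohort also carried Rosa26-M2rtTA and TetOP-H2B-GFP, a histone-GFP fusion made under doxycycline and diluted by each division afterwards, and it gave 3 WT and 3 KO libraries each of GFP-high HSCs, GFP-low HSCs, GFP-high MPPs and GFP-low MPPs. Those mice drank 2 mg/ml doxycycline with 10 mg/ml sucrose for 6 weeks, were chased without it for 17 days and were sorted once 15 days had passed from the final poly(I:C) injection. The labels give no further genotype for the WT mice, and poly(I:C) is stated for the cohort rather than for each library. Mx1-Cre acts in every cell that answers interferon, so the deletion is not limited to blood stem cells. The tables hold 1 value per gene, so Hira RNA does not test the excision of part of the gene: its log2 difference lay between -0.23 and 0.13 in the 6 populations, and none passed the test.

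Cells enter mitosis when cyclin B and CDK1 are switched on by CDC25 phosphatases, with PLK1 and the Aurora kinases driving spindle assembly. Kinetochores then couple chromosomes to microtubules, the spindle checkpoint holds back the anaphase-promoting complex until all are attached, and separase and the midzone proteins part the chromatids and the cells. Most of these genes are transcribed in a late wave of the cell cycle by MuvB complexes with B-MYB and FOXM1, and are silenced in resting cells by the DREAM complex, so their summed RNA is widely read as a mark of dividing cells. Adult HSCs divide rarely, and their MPP progeny are known to divide more often. In bulk samples such as these, fewer cells in mitosis and less RNA per cell cannot be told apart.

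Promoters of this gene class often pair a CHR element (core TTTGAA), at which MuvB complexes sit, with CCAAT boxes, which NF-Y binds. RefSeq promoter windows (250 bases before to 50 after the start, assembly GRCm38.p6) were matched by symbol for 41 of the 50 genes, in 43 windows. The 6 sequences shown here are the 150 bases upstream of the start of genes that carry the results, 5′ to 3′ along the gene, with every TTTGAA and CCAAT in capitals on either strand (TTCAAA and ATTGG on the other).
Kpna2: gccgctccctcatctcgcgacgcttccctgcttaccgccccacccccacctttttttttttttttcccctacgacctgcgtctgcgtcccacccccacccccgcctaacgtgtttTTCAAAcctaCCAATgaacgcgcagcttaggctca
Ccnb1: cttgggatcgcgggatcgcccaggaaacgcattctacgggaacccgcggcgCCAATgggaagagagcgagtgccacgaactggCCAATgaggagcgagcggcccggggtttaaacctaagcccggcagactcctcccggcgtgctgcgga
Ube2c: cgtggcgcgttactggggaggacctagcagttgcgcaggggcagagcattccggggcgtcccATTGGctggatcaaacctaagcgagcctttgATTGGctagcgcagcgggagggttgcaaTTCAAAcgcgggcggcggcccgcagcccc
Top2a: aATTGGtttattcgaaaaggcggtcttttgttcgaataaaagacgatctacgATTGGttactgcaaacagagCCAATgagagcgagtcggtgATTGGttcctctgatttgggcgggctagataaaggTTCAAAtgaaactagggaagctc
Plk1: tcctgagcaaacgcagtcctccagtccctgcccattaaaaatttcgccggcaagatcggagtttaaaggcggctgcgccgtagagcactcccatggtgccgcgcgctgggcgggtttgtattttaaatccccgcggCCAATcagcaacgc
Cdk1: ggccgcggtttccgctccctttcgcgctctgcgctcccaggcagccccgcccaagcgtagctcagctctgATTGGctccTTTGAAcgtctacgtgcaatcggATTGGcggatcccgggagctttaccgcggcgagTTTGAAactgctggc
The windows lie at chr11:106999526-106999675 (minus strand) for Kpna2, chr13:100786487-100786636 (minus) for Ccnb1, chr2:164769779-164769928 (plus) for Ube2c, chr11:99024190-99024339 (minus) for Top2a, chr7:122159285-122159434 (plus) for Plk1 and chr10:69352913-69353062 (minus) for Cdk1. TTTGAA was found on either strand in 33 of the 43 windows (76.7%), against 17.9% of all 32851 windows of the same length. CCAAT was in 34 (79.1%), against 37.4%, and both together in 30 (69.8%), against 6.95%. Neither motif contains the other, on either strand, and neighbouring matches of the pair can share at most 1 base. Of the 74 CCAAT matches in the members, 66.2% lay in the 100 bases before the start, against 43.6% of the matches in all windows. For the 43 TTTGAA matches the share was 32.6%, against 30.4%. Ccnb1 held CCAAT and no TTTGAA in its window, and Plk1 held its single TTTGAA at base 30 after the start, outside the stretch printed above.

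Whole reads could be recovered from the FPKM steps, and without the ribosomal RNA gene that dominates some libraries they came to 18.25 to 32.48 M reads per library in the first cohort and 5.82 to 9.57 M reads in the GFP cohort, where that gene took 22.8% to 42.7% of the reads against 1.9% to 5.1% in the first. The listed genes carried 22 to 9623 reads each in the first cohort and 26 to 2070 in the GFP cohort, so the sampling error is widest for genes near 1 FPKM in the GFP libraries. Of 13 HSC marker genes, none was under 1 FPKM in every library of an HSC population, while Slamf1 and Vwf were in all 3 MPP populations. In both of the GFP-low HSCs and the GFP-high MPPs, KO library 3 stood apart: its granulocyte-monocyte marker genes summed to 29130 and 24490 FPKM, against 2305 to 5260 and 4337 to 6914 FPKM in the other 5 libraries of each population. KO library 3 also had the lowest share of reads on the ribosomal RNA gene in each GFP population, 30.1% (GFP-high) and 29.5% (GFP-low) for HSCs, 22.8% (GFP-high) and 26.2% (GFP-low) for MPPs, while all other GFP libraries lay between 33.5% and 42.7%. It was the highest KO library for 37, 47, 48 and 29 members in these populations, in the same order, and the bearing of that share on the results was not tested.

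In WT HSCs of the first cohort the most abundant members per length were Spc24, a kinetochore subunit, at 77.9 ± 4.73 FPKM (mean ± SD, n = 4), and Ccnb2, cyclin B2, at 76.9 ± 3.28 FPKM. These neighbours in the order overlapped in their libraries. Kpna2, an importin alpha, followed at 62.3 ± 5.51 FPKM and Cdc20, the checkpoint target that activates the anaphase-promoting complex, at 55.2 ± 5.93 FPKM. The lowest were Cenpe, a kinetochore motor, at 1.03 ± 0.304 FPKM and Cenpf at 1.04 ± 0.0794 FPKM. WT MPPs had the same 4 genes at the top of the order, at lower levels, with Spc24 at 32.2 ± 8.23 FPKM. In WT cells of all 4 GFP populations Ccnb2 and Cdc20 held the first 2 places, with Ccnb2 at 48.8 to 71.9 FPKM and Cdc20 at 42.3 to 63.2 FPKM.

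The first comparison asked whether mitosis genes differ between KO and WT MPPs. In MPPs of the first cohort every one of the 48 genes tested had a higher mean in the KO libraries, with a median log2 difference of 0.66 on the log2(FPKM + 1) scale, while the median over all 13916 genes tested was near 0 and 50.4% of them lay above 0. The 4 KO values lay above all 4 WT values for 22 of the 48 genes, against 5.08% of all genes. An unadjusted p under 0.05 with a higher KO level was reached by 38 of the 48, against 8.77% of all genes. After adjustment over all genes, 1 member, Kpna2, passed the threshold of 0.05 in the limma test. Of all genes, 4 passed with a higher KO level (0.0287%), and 15 in either direction (0.108%).

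**Figure D1:**
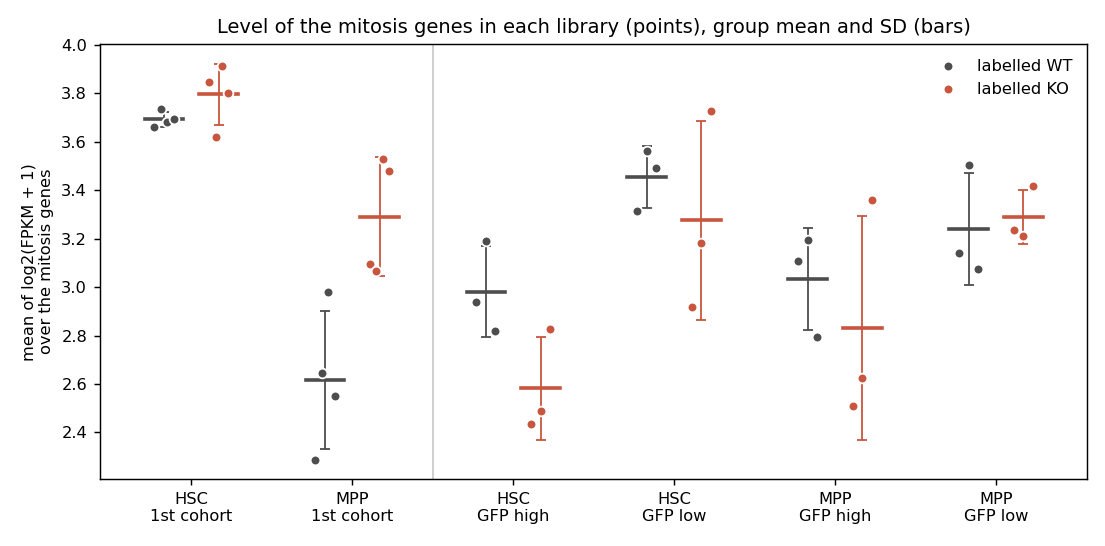
Mean of log2(FPKM + 1) over the 50 mitosis genes in each library (points), with the group mean and SD as bars, for labelled WT (grey) and labelled KO (red) libraries of 6 populations; tables of different populations were scaled separately. In the MPPs of the first cohort the KO libraries lie between 3.07 and 3.53 and the WT libraries between 2.29 and 2.98, without overlap, while in the other 5 populations the groups overlap.

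The genes of mitotic entry had the highest median of the 8 roles in these MPPs, 1.03, with 5 of 8 not overlapping. Ccnb1, cyclin B1, was at 5.58, 11.3, 14.9 and 9.20 FPKM in the WT libraries and at 21.5, 22.2, 33.5 and 32.0 FPKM in the KO libraries, a log2 difference of 1.37 (95% interval 0.82 to 1.93, adjusted p = 0.0514). Its lowest KO library was above its highest WT library. Cdk1, the kinase that cyclin B activates, was at 15.4 to 23.7 FPKM in WT and 25.5 to 37.3 FPKM in KO libraries, a difference of 0.68 (adjusted p = 0.0953), again without overlap. Plk1, a kinase of spindle poles and kinetochores, was at 4.08, 5.32, 11.1 and 6.88 FPKM in WT and at 12.0, 13.2, 16.4 and 22.9 FPKM in KO libraries (1.16, adjusted p = 0.0788). The third WT library was the highest of its group for all 3 genes, as it was for 36 of the 48 members.

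Among the 5 spindle checkpoint genes, which delay anaphase while kinetochores are unattached, the median difference was 0.76 and 3 did not overlap. Zwilch, which recruits dynein and checkpoint proteins to kinetochores, was at 2.30, 1.56, 2.86 and 2.05 FPKM in WT and at 4.72, 4.15, 4.76 and 5.44 FPKM in KO libraries, a log2 difference of 0.86 (95% interval 0.52 to 1.21, adjusted p = 0.0514). Every KO library was above every WT library. Bub1b, the BubR1 checkpoint kinase, was at 4.50 to 8.13 FPKM in WT and 7.12 to 15.3 FPKM in KO libraries, with overlap (0.76, adjusted p = 0.146).

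The 4 genes of the anaphase-promoting complex pathway, separase included, had a median of 0.68, with 2 not overlapping. Ube2c, the ubiquitin-conjugating enzyme that works with the complex, was at 7.57, 15.8, 22.9 and 11.3 FPKM in WT and at 24.2, 27.5, 45.4 and 33.3 FPKM in KO libraries (1.19, adjusted p = 0.0953). Its groups did not overlap. Cdc20 overlapped, at 14.9 to 29.8 FPKM in WT and 26.6 to 60.7 FPKM in KO libraries (0.71, adjusted p = 0.24).

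The chromosomal passenger complex, which corrects attachments at the centromere and moves to the midzone in anaphase, had a median of 0.89 over 4 genes, with 1 not overlapping. That gene was Birc5, survivin, at 8.51, 13.9, 19.9 and 12.7 FPKM in WT and 24.6, 32.7, 36.3 and 29.9 FPKM in KO libraries (1.15, 95% interval 0.68 to 1.63, adjusted p = 0.0524). Its kinase Aurkb was at 5.71 to 16.0 FPKM in WT and 14.0 to 21.4 FPKM in KO libraries, so that its ranges met (0.79, adjusted p = 0.162).

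The 5 centromere and kinetochore genes that could be tested had a median of 0.69, and 3 did not overlap. Cenpa, the centromeric histone H3 variant, was at 7.76, 17.8, 19.9 and 12.8 FPKM in WT and 22.4, 28.0, 28.2 and 26.0 FPKM in KO libraries (0.87, adjusted p = 0.124). All 4 KO libraries were above the WT range. Ndc80, the microtubule-binding kinetochore subunit, overlapped at 3.61 to 7.91 FPKM in WT and 5.06 to 11.7 FPKM in KO libraries (0.59, adjusted p = 0.287).

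Kpna2, which carries the spindle factor TPX2 among its cargoes, was at 22.8, 18.9, 31.9 and 21.7 FPKM in WT and at 46.1, 43.1, 59.2 and 58.2 FPKM in KO libraries. It rose in KO MPPs by 1.09 on the log2 scale (SE 0.17, 95% interval 0.72 to 1.47, adjusted p = 0.0475), with all 4 KO libraries above the WT range. The 10 genes of spindle motors and microtubule proteins, to which it was assigned, had a median of 0.65, with 4 not overlapping. Tpx2 itself was at 2.97 to 6.47 FPKM in WT and 6.34 to 9.59 FPKM in KO libraries (0.82, adjusted p = 0.0988), and Kif11, the motor that pushes spindle poles apart, at 3.18 to 6.81 and 4.97 to 8.27 FPKM (0.51, adjusted p = 0.307). Both overlapped.

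Cytokinesis had the lowest median of the roles, 0.33, with 2 of 6 genes not overlapping. Kif23, a subunit of centralspindlin, had the lowest difference of all members, 0.16 (95% interval -0.30 to 0.62), at 6.41 to 11.3 FPKM in WT and 7.85 to 13.4 FPKM in KO libraries. Prc1, which bundles midzone microtubules, was at 1.12 to 2.25 and 1.77 to 2.63 FPKM (0.24, adjusted p = 0.525). Neither difference was larger than the spread of the libraries.

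Chromosome structure genes had a median of 0.48, with 2 of 6 not overlapping. Top2a, the topoisomerase that untangles sister chromatids, was at 12.3, 12.4, 16.8 and 11.0 FPKM in WT and 19.1, 15.7, 27.2 and 20.6 FPKM in KO libraries (0.60, adjusted p = 0.142). Its lowest KO library lay inside the WT range. Mki67, the Ki-67 protein that coats mitotic chromosomes, was at 0.701 to 2.20 FPKM and 1.57 to 2.62 FPKM (0.46, adjusted p = 0.311), and the condensin subunit Smc2 at 10.2 to 13.3 FPKM and 12.4 to 23.2 FPKM (0.46, adjusted p = 0.242).

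**Figure D2:**
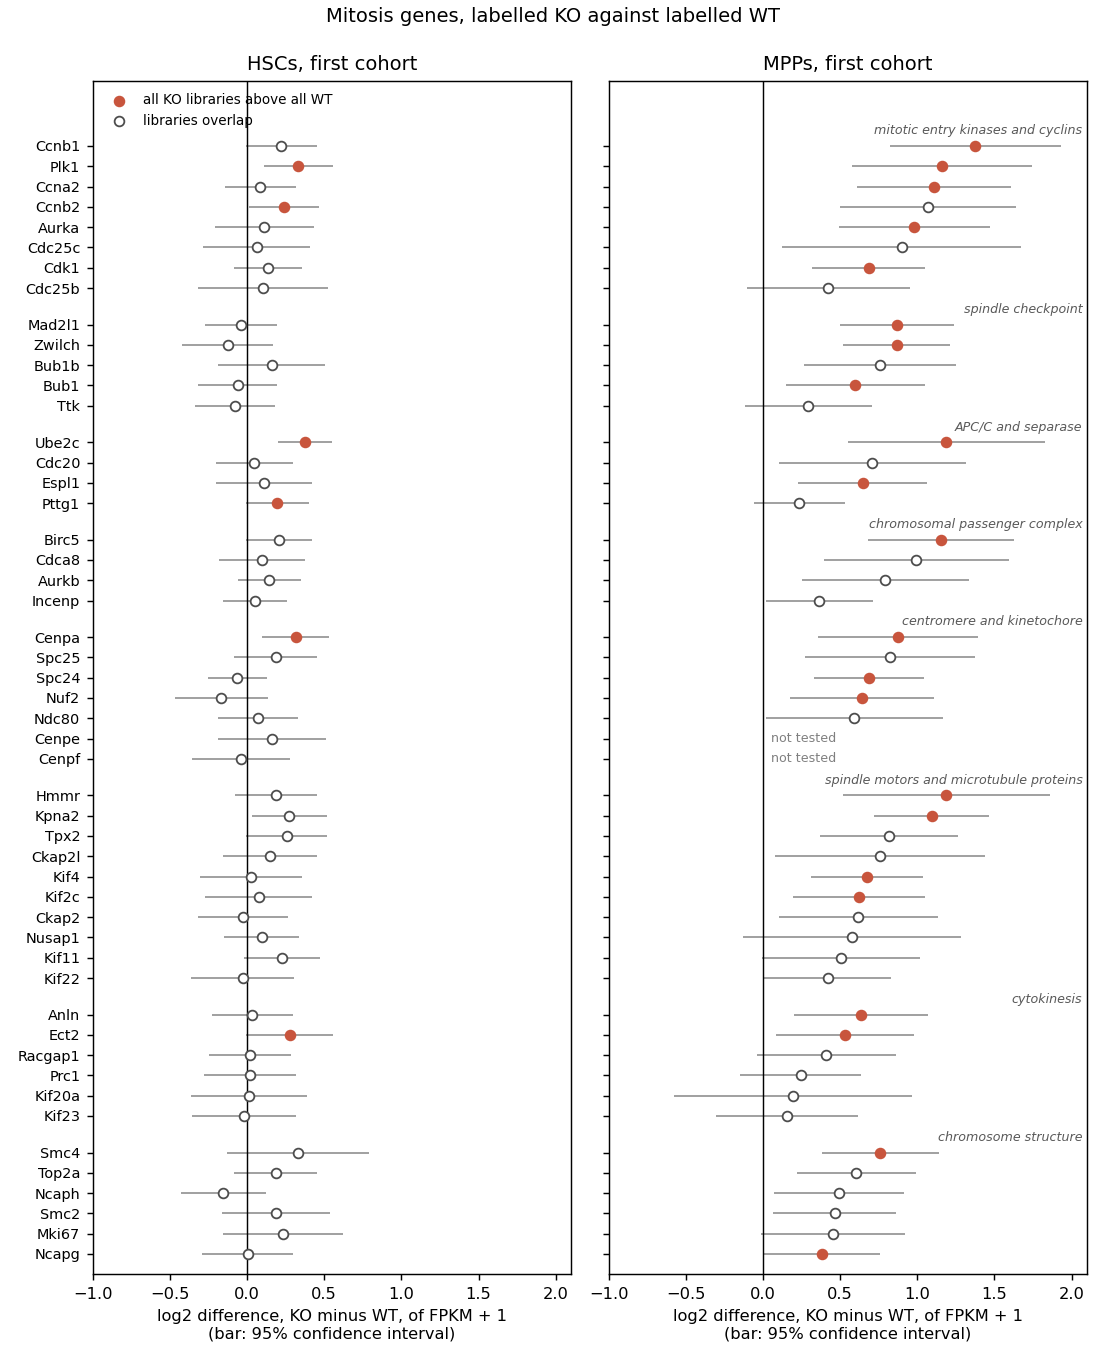
Log2 difference of FPKM + 1, KO minus WT, with its 95% confidence interval (horizontal axis) for each mitosis gene (vertical axis, grouped by role) in HSCs (left) and MPPs (right) of the first cohort, 4 libraries per group; filled points mark genes whose KO libraries all lie above all WT libraries. All 48 points of the MPPs are right of 0, from 0.16 for Kif23 to 1.37 for Ccnb1, and the HSC points lie between -0.17 and 0.38.

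These calls rested on few libraries. Without the third WT library 12 members passed in the MPPs, without the fourth KO library 5 did, and without any of the other 6 libraries none did, Kpna2 included, while the median difference of the members stayed between 0.58 and 0.80. Kpna2 also missed the threshold with a pseudocount of 0.1 (adjusted p = 0.0609), with no filter on low values (0.123) and with the libraries rescaled to one total (0.0739), and 24 members passed when the HSC libraries shared the estimate of the spread. Markers of other cell types moved with the comparison: 22 of 23 erythroid genes tested had a higher KO mean (median 1.05), with sums of 614.7 to 5964 FPKM in WT and 2176 to 10710 FPKM in KO libraries and Ahsp under 1 FPKM throughout, and 8 of 10 mast cell, basophil and eosinophil genes did (median 1.37), with sums of 34.16 to 203.1 and 74.86 to 1350 FPKM and Mcpt4 under 1 FPKM throughout. Of these, Cpa3, a mast cell protease, rose by 1.40 (adjusted p = 0.0161). B cell genes were lower in the KO mean for 4 of 4 tested (median -1.02), with sums of 33.27 to 42.67 FPKM in WT and 25.21 to 31.35 FPKM in KO libraries and Ebf1, Pax5 and Ms4a1 under 1 FPKM throughout. HSC marker genes were lower for 7 of 9 tested (median -0.26), with sums of 348.1 to 420.8 FPKM in WT and 263.6 to 310.9 FPKM in KO libraries. Slamf1, Hoxb5, Ctnnal1 and Vwf were under 1 FPKM throughout. MPP and lymphoid genes were lower for 5 of 8 (median -0.04), although their sums were higher in KO, at 282.6 to 345.6 and 346.1 to 434.7 FPKM. Rag1 and Ccr9 were under 1 FPKM throughout. The part of these lists in the result was not tested.

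In HSCs of the first cohort the same genes differed little. Of the 50 tested, 39 had a higher KO mean, against 49.8% of all genes, and their median difference was 0.10. KO library 2 was the lowest of its group for 32 members and the highest for none, and the median was 0.157 without it and 0.036 without KO library 3. The KO libraries lay above the WT libraries for 6 (Ube2c, Pttg1, Ect2, Cenpa, Plk1 and Ccnb2), against 2.81% of all genes, and below them for none, against 3.39%. No member passed after adjustment, against 0.124% of all genes, while 5 had an unadjusted p under 0.05, against 4.87%.

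Ube2c was at 41.0, 42.7, 40.5 and 41.1 FPKM in WT HSCs and at 50.4, 54.8, 57.0 and 53.6 FPKM in KO HSCs, the smallest p of the list (0.38, 95% interval 0.20 to 0.55, adjusted p = 0.13). The SD of the WT libraries was 0.926 FPKM, and none reached the lowest KO library. Plk1 was at 15.8 to 16.7 FPKM in WT and 18.0 to 24.0 FPKM in KO libraries (0.33, adjusted p = 0.28), and Cenpa at 17.8 to 21.5 and 22.5 to 27.2 FPKM (0.32, adjusted p = 0.295). Both were without overlap.

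Kpna2 overlapped in HSCs, at 69.0, 56.3, 64.1 and 59.8 FPKM in WT and 89.0, 71.1, 77.2 and 65.4 FPKM in KO libraries (0.27, 95% interval 0.03 to 0.51, adjusted p = 0.444). So did Ccnb1, at 28.9 to 35.2 and 33.8 to 42.1 FPKM (0.22, adjusted p = 0.51), Birc5 (0.21) and Top2a (0.18). Nuf2, the partner of Ndc80, had the lowest difference of the list, -0.17 (95% interval -0.47 to 0.13), at 5.65 to 8.65 FPKM in WT and 5.04 to 7.28 FPKM in KO libraries. The checkpoint genes as a role had a median of -0.06 in HSCs, against 0.12 for the genes of mitotic entry, of which 8 of 8 had a higher KO mean. Erythroid genes were at higher KO means for 18 of 22 tested (median 0.36), of which Tspo2 rose (adjusted p = 0.0473), with sums of 1167 to 3585 FPKM in WT and 1241 to 7950 FPKM in KO libraries and Epb42 and Ahsp under 1 FPKM throughout. Megakaryocyte genes were at higher KO means for 7 of 11 (median 0.17), of which Ppbp, a platelet chemokine, rose (adjusted p = 0.0275), with sums of 1010 to 1224 FPKM in WT and 1312 to 1796 FPKM in KO libraries and Gp6 and Mpig6b under 1 FPKM throughout. Macrophage genes were higher for 4 of 4 (median 0.61), with sums of 16.65 to 23.19 and 31.86 to 34.0 FPKM and Adgre1, Mertk, Mrc1 and Csf1r under 1 FPKM throughout. Sums also did not overlap for mast cell genes, at 45.3 to 57.35 FPKM in WT and 68.39 to 150 FPKM in KO libraries, or for B cell genes, at 26.47 to 32.41 and 20.1 to 26.33 FPKM. The part of these lists in the result was not tested.

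The difference between the KO effects of the first cohort's MPPs and HSCs was tested directly. It was above 0 for 48 of 48 members, against 50.5% of all 13166 genes, with a median of 0.60. An unadjusted p under 0.05 was reached by 25 of them, against 4.44% of all genes, and none passed after adjustment, against 0.0076%. Ccnb1 had the largest difference of effects, 1.15 (95% interval 0.54 to 1.77, adjusted p = 0.309). Zwilch had the smallest p, with 0.99 (0.57 to 1.42, adjusted p = 0.238), followed by Mad2l1, a checkpoint protein that binds CDC20, with 0.91 (adjusted p = 0.253), and Spc24 with 0.75 (adjusted p = 0.307). Kpna2 had 0.82 (adjusted p = 0.309), so its call in MPPs and its missing call in HSCs were not shown to differ. Pttg1, securin, which holds separase inactive, had the smallest difference of effects, 0.04 (95% interval -0.29 to 0.37). Without the third WT library of the MPPs, 5 members passed this test.

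In GFP-high HSCs, the cells that had diluted the label least, the direction was the other way. Every one of the 50 genes had a lower mean in the KO libraries, against 50.4% of all genes, with a median difference of -0.40. The KO libraries lay below all WT libraries for 14, against 7.47% of all 10850 genes, and 18 had an unadjusted p under 0.05 with a lower KO level, against 4.72%. None passed after adjustment, against 0.0276%.

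Top2a had the smallest p in the GFP-high HSCs, at 11.3, 12.3 and 8.63 FPKM in WT and 5.48, 5.66 and 7.18 FPKM in KO libraries (-0.72, 95% interval -1.08 to -0.37, adjusted p = 0.20). No KO library reached the WT range. Of the 6 chromosome structure genes, 5 did not overlap, more than in any other role, and their median was -0.40. Mki67 was at 4.37, 4.51 and 3.21 FPKM in WT and 2.17, 2.68 and 2.89 FPKM in KO libraries (-0.49, adjusted p = 0.358), and Smc2 at 7.06 to 9.32 and 4.56 to 6.71 FPKM (-0.45, adjusted p = 0.381).

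Ckap2l, a spindle pole protein, had the largest difference in these cells, at 5.86, 10.6 and 7.88 FPKM in WT and 2.62, 2.91 and 5.07 FPKM in KO libraries (-1.01, 95% interval -1.55 to -0.47, adjusted p = 0.225). Kif4, a chromosome-bound motor, was at 1.40 to 1.79 and 0.551 to 0.879 FPKM (-0.59, adjusted p = 0.286), and Kif11 at 2.59 to 3.46 and 1.62 to 2.27 FPKM (-0.53, adjusted p = 0.319). All 3 were without overlap, as was Prc1, at 2.79 to 3.79 and 1.80 to 2.31 FPKM (-0.50, adjusted p = 0.319). Every KO library of Kif4 was under 1 FPKM, so it was analysed through its WT libraries alone. That selection favours a lower KO level. Cenpe and Cenpf also had every WT library just above 1 FPKM, at 1.132 to 1.343 and 1.085 to 1.448 FPKM, with lower KO means. The filter can favour a lower KO level there too, and Kif4, Cenpe and Cenpf stay in the counts above.

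Genes of mitotic entry were at a median of -0.42 in GFP-high HSCs, but 1 of 8 was without overlap. Ccnb1 was at 9.38, 9.61 and 6.98 FPKM in WT and at 3.28, 4.69 and 7.40 FPKM in KO libraries (-0.70, 95% interval -1.23 to -0.18, adjusted p = 0.369). The third KO library was above the lowest WT library, and that library was the highest KO library for 37 of the 50 members. Ube2c showed the same order of libraries, at 24.6 to 35.1 FPKM in WT and 16.2, 17.4 and 29.1 FPKM in KO libraries (-0.53, adjusted p = 0.454). Kif23 had the lowest difference in size, -0.06, and turned to 0.03 without the third WT library.

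Markers of other cell types moved in both directions in the GFP-high HSCs. Granulocyte-monocyte genes had a lower KO mean for 10 of 16 tested (median -0.23), with sums of 6036 to 7633 FPKM in WT and 4641 to 5755 FPKM in KO libraries, while 1 of them, Prtn3, a neutrophil protease, rose by 0.76 (adjusted p = 0.0383). B cell genes were lower for 3 of 3 (median -1.03), with sums of 38.74 to 44.45 and 29.62 to 38.41 FPKM and Ebf1, Pax5, Ms4a1 and Blnk under 1 FPKM throughout. Erythroid genes were lower for 15 of 21 (median -0.37), with overlapping sums of 1075 to 1491 and 1168 to 1420 FPKM and Hba-a2, Hbb-bs and Ahsp under 1 FPKM throughout. Megakaryocyte genes were higher for 6 of 10 (median 0.38), with sums of 124.6 to 132.3 and 147 to 216.2 FPKM and Gp1bb, Gp6 and Mpig6b under 1 FPKM throughout. The part of these lists in the result was not tested.

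In GFP-low HSCs, which had divided more, the median difference was -0.18, and 11 of 50 genes had a higher KO mean, against 49.2% of all genes. The KO libraries lay below the WT libraries for 3 (Prc1, Ndc80 and Anln), against 6.42% of all 10705 genes, and above them for none, against 7.67%. No member passed after adjustment, nor did any gene (0%), and 2 members had an unadjusted p under 0.05 with a lower KO level, against 3.9%.

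Prc1 was at 4.28, 4.60 and 5.37 FPKM in WT and at 1.69, 4.06 and 3.28 FPKM in KO libraries (-0.57, 95% interval -1.11 to -0.02, adjusted p = 0.57), and Ndc80 at 4.58 to 5.26 and 3.27 to 4.35 FPKM (-0.36, adjusted p = 0.595). Smc2 was at 10.9, 7.68 and 11.1 FPKM in WT and at 6.29, 6.42 and 8.52 FPKM in KO libraries, with overlap (-0.43, 95% interval -0.85 to -0.0045, adjusted p = 0.578). Ccnb1 was at 10.3, 13.6 and 13.5 FPKM in WT and at 4.47, 13.1 and 22.5 FPKM in KO libraries (-0.13, 95% interval -1.12 to 0.86), and Cenpa at 26.3 to 42.5 FPKM and at 18.1, 44.5 and 56.8 FPKM (0.16, 95% interval -0.67 to 1.00). In both genes the KO libraries lay on either side of the WT range.

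The third KO library of the GFP-low HSCs, the one whose granulocyte-monocyte genes summed to 29130 FPKM, was the highest KO library for 47 of the 50 members. Without it the median difference of the members was -0.39, and Cenpa turned to -0.16. Without the first KO library, the lowest for 32 members, the median was -0.06 and Ccnb1 turned to 0.45. Markers of that cell type were at higher KO means for 13 of 15 genes tested (median 0.55), with sums of 4095 to 4283 FPKM in WT and 2305 to 29130 FPKM in KO libraries and Csf1r under 1 FPKM throughout. Erythroid genes were at higher KO means for 20 of 21 tested (median 0.86), 12 of them without overlap, against 7.67% of all genes. Their sums were 984.6 to 1009 FPKM in WT and 1556 to 2768 FPKM in KO libraries, with Hba-a2, Hbb-bs and Ahsp under 1 FPKM throughout. Megakaryocyte genes were higher for 7 of 10 (median 0.10), with sums of 201.2 to 306.8 FPKM in WT and 444.5 to 514.1 FPKM in KO libraries and Gp1bb, Gp6 and Mpig6b under 1 FPKM throughout, and B cell genes for 4 of 4 (median 0.37), with sums of 30.74 to 35.71 and 36.48 to 63.37 FPKM and Ebf1, Pax5 and Ms4a1 under 1 FPKM throughout. The part of these marker lists in the result was not tested.

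GFP-high MPPs had a median difference of -0.20, with 8 of 49 genes at a higher KO mean, against 51% of all genes. The groups did not overlap for Cdc25c and Prc1, both lower in KO, against 6.59% of all 10789 genes, and 4 members had an unadjusted p under 0.05 with a lower KO level, against 3.48%. None passed after adjustment, and no gene did (0%). Prc1 was at 3.58, 4.09 and 3.11 FPKM in WT and 1.49, 1.99 and 2.89 FPKM in KO libraries (-0.58, 95% interval -1.01 to -0.14, adjusted p = 0.556). Top2a was at 13.3, 12.6 and 10.2 FPKM and at 5.18, 6.23 and 11.0 FPKM (-0.67, adjusted p = 0.579), so that 1 KO library was inside the WT range. Ckap2l was at 8.90, 9.34 and 6.53 FPKM in WT and 4.47, 4.44 and 7.57 FPKM in KO libraries, with the same overlap (-0.53, 95% interval -1.01 to -0.05, adjusted p = 0.666). Ect2, the exchange factor that starts the cleavage furrow, had the highest difference, 0.21 (95% interval -0.35 to 0.77), at 2.37 to 4.18 and 2.81 to 5.90 FPKM.

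That library, the third, was again the highest KO library for 48 of 49 members in the GFP-high MPPs and the one with the granulocyte-monocyte sum of 24490 FPKM. Ccnb1 shows the split: 8.88, 9.65 and 6.28 FPKM in WT against 5.20, 6.25 and 19.8 FPKM in KO libraries, a difference of 0.10 (95% interval -0.82 to 1.02) that turned to -0.45 without the library. The median of the members was -0.47 without it and -0.01 without the first KO library. For 14 of 17 granulocyte-monocyte genes tested the KO mean was higher (median 0.79), with sums of 4650 to 5933 FPKM in WT and 4337 to 24490 FPKM in KO libraries and Csf1r under 1 FPKM throughout. Erythroid genes were higher for 18 of 21 (median 0.25), with sums of 870.1 to 1173 and 1213 to 2260 FPKM and Hba-a2, Hbb-bs and Ahsp under 1 FPKM throughout. Mast cell, basophil and eosinophil genes were higher for 6 of 6 (median 1.00), with overlapping sums of 42.01 to 313 and 115.9 to 298.7 FPKM and Mcpt4, Ms4a2, Prss34 and Il1rl1 under 1 FPKM throughout. Sums also did not overlap for megakaryocyte genes, at 68.27 to 76.2 FPKM in WT and 80.01 to 134 FPKM in KO libraries, or for macrophage genes, at 16.75 to 22.08 and 22.69 to 33.84 FPKM. The part of these lists in the result was not tested.

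GFP-low MPPs were the second MPP population of that cohort. The median difference was 0.06, between -0.015 and 0.196 when 1 library at a time was left out, with 29 of 50 genes at a higher KO mean, against 50.4% of all genes. WT library 2 was the highest WT library for 48 of the 50 members, with a summed level of 811.1 FPKM against 587.2 and 528.8 FPKM in the other WT libraries, and the median was 0.196 without it. The groups did not overlap for 3 genes higher in KO (Kpna2, Plk1 and Smc4), against 9.73% of all 10621 genes, and for 3 lower in KO (Ttk, Nuf2 and Ndc80), against 9.33%. An unadjusted p under 0.05 was reached by 4 members higher in KO, against 6.12% of all genes, and by 1 lower in KO, against 6.16%. None passed after adjustment, against 0.32% of all genes.

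Plk1 had the smallest p there, at 16.3, 22.4 and 13.2 FPKM in WT and 23.7, 24.1 and 28.4 FPKM in KO libraries (0.55, 95% interval 0.14 to 0.97, adjusted p = 0.29). Kpna2 was at 8.78, 13.1 and 9.95 FPKM in WT and at 14.3, 13.9 and 13.6 FPKM in KO libraries (0.38, adjusted p = 0.361). In both genes the lowest KO library was just above the highest WT library. Cenpa was at 31.0 to 48.8 and 44.7 to 61.0 FPKM with overlap (0.51, adjusted p = 0.317), while Ndc80, at 4.25 to 5.18 and 2.49 to 3.98 FPKM, was lower without overlap (-0.41, adjusted p = 0.367). Cdc25b, a phosphatase that activates CDK1, had the lowest difference, -0.44, with overlap. Erythroid genes were higher in the KO mean for 19 of 22 tested (median 0.96), and 5 of them rose (Epor, Aqp1, Gata1, Rhag and Car2). Their sums were 1081 to 1652 FPKM in WT and 2272 to 2769 FPKM in KO libraries, with Hba-a2, Hbb-bs and Ahsp under 1 FPKM throughout. HSC marker genes were lower for 6 of 10 (median -0.07), with sums of 450.6 to 488.4 and 325.5 to 424.8 FPKM. Slamf1 and Vwf were under 1 FPKM throughout. The part of both lists in the result was not tested.

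**Figure D3:**
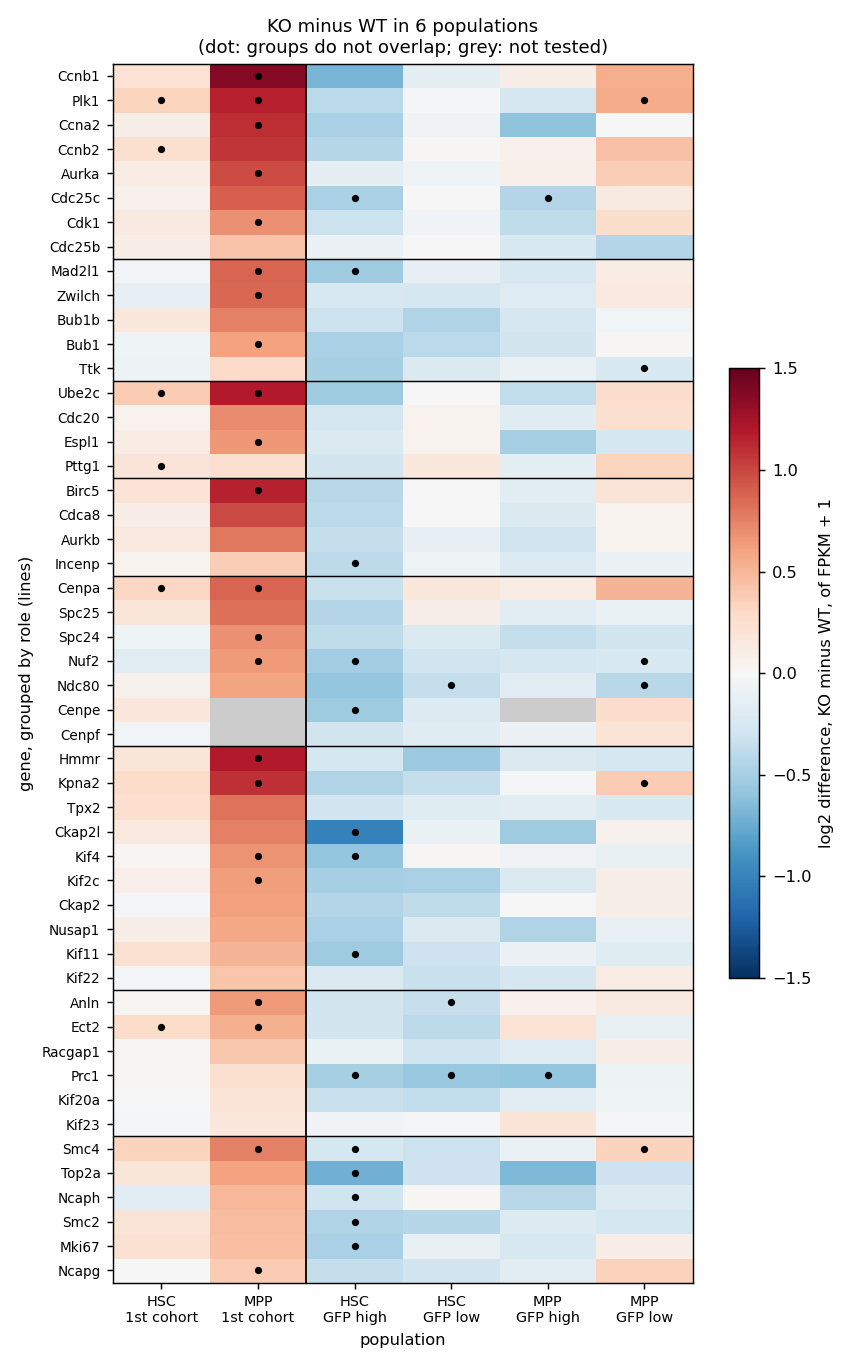
Log2 difference of FPKM + 1, KO minus WT (colour: red higher in KO, blue lower), for each mitosis gene (rows, grouped by role) in 6 populations (columns); a dot marks genes whose groups do not overlap and grey marks genes not tested. The MPP column of the first cohort is red throughout (median 0.66) and the GFP-high HSC column is blue throughout (median -0.40).

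Across populations, 48 genes were above 0 in the MPPs of the first cohort and below 0 in the GFP-high HSCs, groups with no library in common. The differences between KO effects were also tested within the GFP cohort, and no member or other gene passed after adjustment (0% in each). The effect in MPPs minus that in HSCs had a median of 0.19 over the members in the GFP-high class, where Kif4 had the smallest p (0.54, 95% interval 0.01 to 1.06) and the median turned to -0.10 without the third KO library of the MPPs, and 0.23 in the GFP-low class, led by Smc4, a condensin subunit (0.66, 95% interval 0.17 to 1.15). Kif4 had been analysed in the GFP-high HSCs through its WT libraries alone, which favours a difference above 0. That also bears on GFP-low minus GFP-high HSCs, where Kif4 was 1 of the 2 members with an unadjusted p under 0.05. The effect in GFP-low minus that in GFP-high cells had a median of 0.23 in HSCs, led by Ckap2l (0.91, 95% interval 0.13 to 1.69), and 0.30 in MPPs, led by Plk1 (0.80, 95% interval -0.07 to 1.67). In the order just given, an unadjusted p under 0.05 with a difference above 0 was reached by 1, 1, 2 and 0 members, against 1.29%, 2.39%, 1.74% and 1.32% of all genes, and with a difference below 0 by none, against 1.45%, 2.16%, 1.61% and 1.38%.

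Levels were also set side by side across populations after rescaling both tables by the median ratio over shared genes. The tables were scaled separately, so these differences are descriptions without a test. In the first cohort, 46 of 48 members were lower in WT MPPs than in WT HSCs, with a median of -1.13, and 42 of them did not overlap, against 9.24% of all genes. In KO cells the median was -0.52, with 43 below 0 and 18 not overlapping, against 7.34%. Ckap2l differed most in WT, with 16.8 FPKM in HSCs and 3.28 FPKM in MPPs on the rescaled scale (-2.12), followed by Ccnb1 with 31.4 and 10.3 FPKM (-1.59). Ect2 and Pttg1 were the 2 members above 0 in WT (0.13 and 0.12).

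The same step had smaller medians in the GFP cohort. Among GFP-high cells, MPPs against HSCs had a median of 0.03 in WT, with 29 of 49 genes above 0, and of 0.22 in KO, with 40 of 49 above 0 and 3 higher without overlap, against 6.95% of all genes. Among GFP-low cells the median was -0.22 in WT, with 47 of 50 below 0 and 7 lower without overlap, against 9.32%, and 0.02 in KO, with 28 of 50 above 0. In libraries of the same number, the mean change over the 50 genes was -0.17, -0.06 and -0.43 in WT GFP-low cells and 0.05, 0.11 and 0.51 in KO GFP-high cells, the same direction in all 3 numbers of each. It was mixed in WT GFP-high cells (0.15, -0.02 and -0.04) and in KO GFP-low cells (0.31, 0.02 and -0.32). The first cohort was sorted 1 week after poly(I:C) began and the GFP cohort 15 days after it ended. The cohorts also differ in alleles, sorting gates and sequencing depth, which cannot be told apart from the time.

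With GFP dilution the levels followed the label. All 50 genes were higher in GFP-low than in GFP-high WT HSCs, with a median of 0.49, and 27 did not overlap, against 8.2% of all genes. In KO HSCs all 50 were again higher, with a median of 0.71 and 24 not overlapping, against 8.26%. Kpna2 differed by 0.82 in WT HSCs, from 8.17 to 15.2 FPKM, and Top2a by 0.48, from 10.8 to 15.4 FPKM, both without overlap. In KO HSCs Top2a differed by 0.89, from 6.11 to 12.2 FPKM, and Ckap2l by 1.36, from 3.53 to 10.6 FPKM. Kif23 differed least in both genotypes, 0.03 in WT and 0.06 in KO.

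The medians of MPPs had the same direction with smaller steps, but not every pair of same-numbered libraries showed a step. The mean change over the 50 genes was 0.03, 0.31 and 0.28 in WT MPPs and 0.72, 0.58 and 0.06 in KO MPPs. In number 1 of WT, 27 of 50 genes were higher in GFP-low cells, and in number 3 of KO, 30 of 50. In WT MPPs 42 of 49 genes were higher in GFP-low cells (median 0.23, 5 not overlapping, against 8.4% of all genes), and in KO MPPs 45 of 49 were (median 0.50, 8 not overlapping, against 7.33%). Plk1 had the largest step in KO MPPs, 1.07, from 12.4 to 25.2 FPKM without overlap, and its step in WT MPPs was 0.27, from 14.1 to 17.3 FPKM with overlap. Kif23 was the 1 gene of WT MPPs that was lower in GFP-low cells without overlap (-0.16), against 7.94% of all genes.

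**Figure D4:**
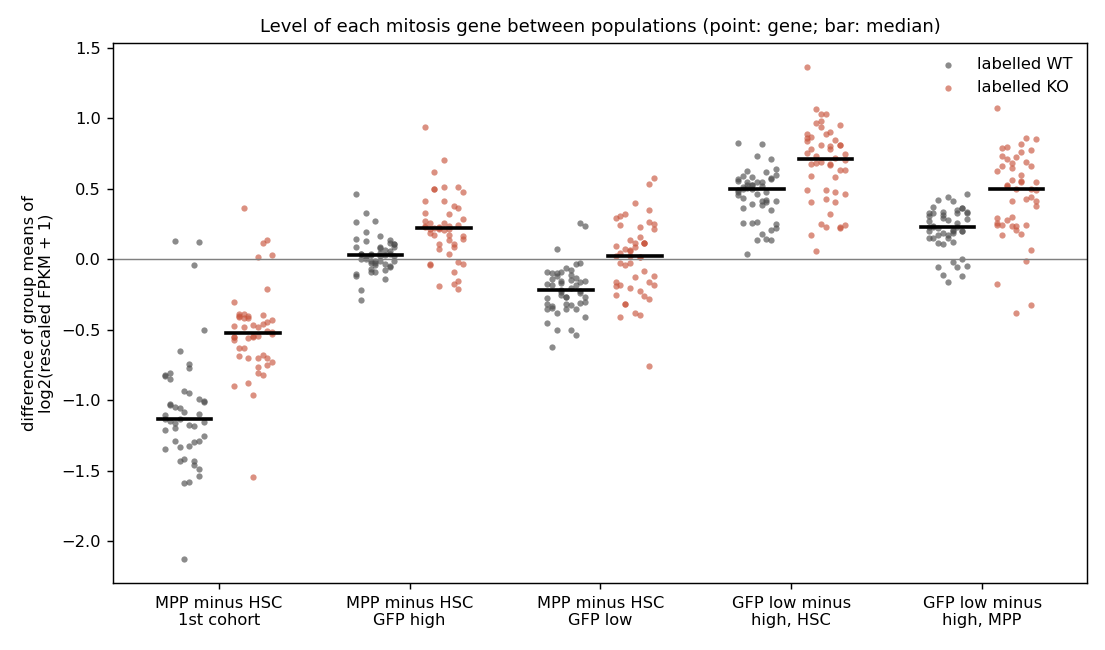
Difference of group means of log2(rescaled FPKM + 1) for each mitosis gene (points) between populations, in labelled WT (grey) and KO (red) cells, with the median of the genes as a bar; no test was made. WT medians run from -1.13 for MPPs against HSCs of the first cohort to 0.49 for GFP-low against GFP-high HSCs.

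The rest of the pathway was read from other lists. Of 77 further mitosis genes tested in the first cohort's MPPs, 65 had a higher KO mean (median 0.34). In 25 the KO libraries were higher without overlap, against 5.08% of all genes, and none passed. Cenph, a subunit of the constitutive centromere network, had the smallest p (0.82, adjusted p = 0.0524), followed by Cdkn3, a phosphatase of CDK1 (1.42, adjusted p = 0.0525). In GFP-high HSCs 9 of 74 had a higher KO mean (median -0.19), and 20 were lower without overlap, against 7.47% of all genes. None passed, and the smallest p were those of Cenph (-0.77, adjusted p = 0.214) and Dsn1, a kinetochore subunit (-0.62, adjusted p = 0.265). In HSCs of the first cohort the list had a median of 0.06 over 83 genes, none passed, and the smallest p were those of Cdkn3 (0.45, adjusted p = 0.158) and Cks2 (0.45, adjusted p = 0.167). The 14 genes of the MuvB, B-MYB, FOXM1 and pocket protein regulators, which transcribe or silence this gene class, had a median of 0.13 in the first cohort's MPPs, led by Foxm1 (0.43, adjusted p = 0.227) and E2f4 (0.30, adjusted p = 0.261). Their median was -0.14 in GFP-high HSCs, led by Rbl1 (-0.42, adjusted p = 0.358) and Lin54 (-0.30, adjusted p = 0.604), and none passed in either.

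Genes of DNA replication and S phase, the stage before, had a higher KO mean for 43 of 46 in the first cohort's MPPs. Their median was 0.35, and 8 were higher without overlap, against 5.08% of all genes. In its HSCs the count was 9 of 46 (median -0.14, 5 lower without overlap, against 3.39%). In GFP-high HSCs it was 2 of 47 (median -0.30, 23 lower without overlap, against 7.47%). None passed in these 3. The smallest p were those of Rrm2, a ribonucleotide reductase subunit, and Slbp, a histone mRNA binding protein, in the MPPs (0.97 and 0.65, adjusted p = 0.0514 for both), Gins1 and Mcm7 in the HSCs (-0.42 and -0.32, adjusted p = 0.259 and 0.284) and Orc6 and Rpa1 in GFP-high HSCs (-0.49 and -0.43, adjusted p = 0.20 and 0.226). A higher KO mean was found for 7 of 47 in GFP-high MPPs (median -0.25), led by Gins2 (-0.52) and Rfc2 (-0.44). There 16 were lower without overlap, against 6.59% of all genes. The count was 9 of 47 in GFP-low HSCs (median -0.17), led by Rfc1 (-0.59) and Uhrf1 (-0.35). Without overlap, 8 were lower and 1 higher, against 6.42% and 7.67% of all genes. In GFP-low MPPs 13 of 47 had a higher KO mean (median -0.17), led by Ccne1 (0.70) and Rfc2 (-0.40). Without overlap, 14 were lower and 2 higher there, against 9.33% and 9.73% of all genes. None passed in these populations either. Inhibitors of cyclin-dependent kinases and quiescence genes had a higher KO mean for 13 of 15 in the first cohort's HSCs (median 0.32), where Btg2, an antiproliferative gene, rose by 0.95 (adjusted p = 0.039). The counts were 11 of 15 in its MPPs (median 0.19), led by Cdkn1a (1.11, adjusted p = 0.136) and Txnip (-0.68, adjusted p = 0.178), and 9 of 14 in GFP-high HSCs (median 0.12), led by Foxo3 (0.39, adjusted p = 0.342) and Btg2 (0.56, adjusted p = 0.467), and none passed in either. In GFP-low HSCs 11 of 15 were higher (median 0.23), led by Btg2 (1.35, adjusted p = 0.245) and Cdkn1a (0.73, adjusted p = 0.30). In GFP-high MPPs the count was 12 of 14 (median 0.13), led by Tob1 (0.56) and Cdkn1a (0.44). In GFP-low MPPs it was 9 of 14 (median 0.06), led by Cdkn1a (0.91) and Egr1 (0.41). None passed in these populations either.

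KO differences were set beside the promoter motifs. In the first cohort's MPPs the 27 genes with both TTTGAA and CCAAT had a median of 0.67 and the 12 others with a window 0.61. In GFP-high HSCs the medians were -0.40 over 28 genes with both and -0.49 over 13 without. Members lay on 17 chromosomes, with 10 on chromosome 2.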

How the data were processed

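RNA-seq had been done on 40 libraries in 12 groups, which the series' design text calls biological replicates. The authors deposited FPKM values per gene in 1 table per population. The submitters' processing notes name STAR, DESeq2, HOMER and mm10, with no role given here. Whether counting used strand is not given in the sources used here. Libraries of a table already had equal median ratios, so values were used as deposited. The test was limma 3.58.1 (R 4.3.3) with a trend on log2(FPKM + 1), computed here from the deposited FPKM, for genes at 1 FPKM in 50% or more of a table's libraries. P-values were adjusted by Benjamini-Hochberg over all genes tested, with a threshold of 0.05, and intervals are 95%. Differences of KO effects were interaction terms over 2 tables. The script was tested on simulated data. Whole reads recovered from the FPKM steps gave the depths and a voom alternative.

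The members and the other gene lists were chosen with earlier results of these data known. In each comparison of KO with WT the text names every member past the test, those with the 3 smallest p and those with the highest and lowest difference. The same holds for the difference of KO effects of the first cohort. For those within the GFP cohort it names only the member with the smallest p. Of 18 anchors of the roles it names all in the first cohort's MPPs and only some elsewhere. For the other lists described it names the genes past the test or, for pathway lists without any, those with the 2 smallest p. Genes spelled out for a count, such as those without overlap, were named after their values were seen. Same-numbered WT and KO libraries had correlations of -0.116 to 0.285 over the 6 populations. The highest was number 4 of the first cohort's MPPs, where the other numbers had -0.032 to 0.045. The labels pair no WT with a KO library, so no block entered the tests of KO against WT. Libraries of 1 genotype and number deviated together between GFP-high and GFP-low cells and between GFP-high HSCs and MPPs (0.136 to 0.398). Between GFP-low HSCs and MPPs the values were 0.263 to 0.296 in WT and -0.043 to 0.252 in KO. In the first cohort they were 0.077 to 0.341 in WT and -0.217 to 0.179 in KO. The labels do not say that a number is 1 animal, so the main tests of differences of KO effects ignored this pairing. A block there was an alternative only. Alternatives changed the pseudocount, filter, scaling, block, libraries in the fit, weights, test and each library in turn.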

Additional observations from a re-analysis of the deposited data

Results flagged for a closer look

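Ndc80, a kinetochore subunit that binds microtubules, had 1 WT library of the first cohort's MPPs far from the rest. Its values were 4.31, 4.18, 7.91 and 3.61 FPKM, and the gap below the highest, library 3, made up 0.836 of the whole range, above Dixon's 95% critical value for 4 libraries. Of 80 groups of 4 examined this way, 1 was marked, and chance marks about 1 in 20.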

How the results depend on the processing

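Counting error is largest for genes near 1 FPKM, and the spread rests on 3 or 4 libraries per group. In the first cohort's MPPs, 1 member and 15 genes passed. These became 0 and 7 with a pseudocount of 0.1, 0 and 0 with no filter, 24 and 560 in a joint fit of the cohort, 5 and 247 with quality weights, 7 and 114 with voom on recovered reads, and 0 to 12 and 0 to 205 when 1 library was left out; rescaling to one total left 0 members. In its HSCs, 17 genes passed, against 2 with no filter, 6 rescaled to one total, 8 in the joint fit, 33 with quality weights, 27 with voom and 9 to 17 when 1 library was left out. For GFP-high HSCs 3 became 5 in the joint fit, 5 with quality weights and 0 to 1 when 1 library was left out. GFP-low HSCs went from 0 to 51, 3 and 0 to 6 under the same settings, and GFP-high MPPs from 0 to 5 in the joint fit and 0 to 1 with 1 library left out. GFP-low MPPs went from 34 to 2 with no filter, 69 in the joint fit and 0 to 31 with 1 library left out. No member passed in HSCs or in any GFP population under any of these settings.

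For the difference of KO effects between the first cohort's MPPs and HSCs, 1 gene passed, against 0 rescaled to one total, 5 with no filter and 0 to 18 when 1 library was left out, with 0 to 5 members. For GFP-low MPPs against GFP-low HSCs it was 0 to 1 gene when 1 library was left out, and for GFP-low against GFP-high MPPs 1 gene with no filter. Rescaling to one total shifted the median of all genes by up to 0.107.

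With the replicate number as a replicate block, 12 members and 137 genes passed in the first cohort's MPPs, 10 genes in its HSCs, 52 in GFP-low MPPs and 0 for the difference of effects in the first cohort; WT and KO libraries share only a number. Blocks across populations changed no call of a member.

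The direction of 5 named genes changed in at least 1 setting. Kif23 in GFP-high HSCs was at 0.011 rescaled to one total and -0.147 to 0.026 with 1 library left out. In GFP-low HSCs Ccnb1 ranged from -0.603 to 0.448 and Cenpa from -0.159 to 0.639. In GFP-high MPPs Ccnb1 was at -0.332 and Ect2 at -0.015 with quality weights, and they ranged from -0.449 to 0.426 and -0.042 to 0.387. Pttg1 ranged from -0.018 to 0.128 in the difference of effects of the first cohort. The median over members of the GFP-high difference of effects turned to -0.026 with quality weights and ranged from -0.103 to 0.359. The cause was not tested in any of these. The members' median kept its sign under every setting in 5 of 6 populations, all but the GFP-low MPPs.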
